A study of Mus musculus with 6 samples.

Results

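The 10 endothelial identity genes Pecam1, Cdh5, Kdr, Flt1, Tek, Tie1, Angpt2, Eng, Plvap and Vwf were followed in RNA-sequencing of the whole mouse pancreas. They were chosen by name, as genes that mark vascular endothelium, and each was found by its Ensembl identifier among the 22556 genes listed. All 10 passed the filter for testing, an average of 1 TPM or more over the 6 mice, as did 16814 genes in all. TPM (transcript abundance on a scale common to all samples) is here a gene's share of the transcripts of all listed genes of a sample, after correction for gene length. All mice were wild type C57BL/6 animals of 8 weeks. The 2 saline mice received saline. The 2 AP mice had acute pancreatitis, evoked by 10 injections of caerulein, a cholecystokinin analog that overstimulates the enzyme-secreting acinar cells, and were killed 24 h after the first injection. The 2 polyI:C-pretreated AP mice, called pretreated mice here, first received 10 mg/kg of polyI:C, a synthetic double-stranded RNA that mimics viral RNA, and then the same caerulein course, after an interval that the labels do not give. No mice given polyI:C without caerulein were analysed here, so polyI:C was read only on top of pancreatitis.

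Endothelial cells line every blood vessel and are tied to each other by VE-cadherin (Cdh5) and PECAM-1. VEGF acts on them through the receptors VEGFR2 (Kdr) and VEGFR1 (Flt1), and angiopoietins act through Tie2 (Tek), whose signal holds vessels quiescent and tight. In the pancreas the capillaries are fenestrated, and the fenestrae are closed by diaphragms that PLVAP builds. Leakage of plasma through these vessels and adhesion of leukocytes to them are long known features of acute pancreatitis.

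All 10 genes were detected in every mouse. Their means over the 6 mice ran from 5.42 TPM for Vwf to 47.7 TPM for Plvap, while the median tested gene had 12.7 TPM. Summed over the 10 genes, the level was 159 and 99.9 TPM after saline, 155 and 141 TPM in AP, and 172 and 119 TPM after pretreatment. The ranges of the 3 groups overlapped, and the lowest and the highest sum came from a saline and a pretreated mouse. In bulk tissue, fewer endothelial cells and less RNA per endothelial cell cannot be told apart. Between an estimated 19 and 477 reads lay behind each of these values. The libraries held an estimated 3300368 to 10856355 reads, with the fewest in the saline mice, where single values are least precise. The part of this depth gap in the comparisons against saline was not tested. The labels number the mice of a group without saying how they were kept apart, so p-values measure only the spread between these samples, which may be technical in part.

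**Figure D1:**
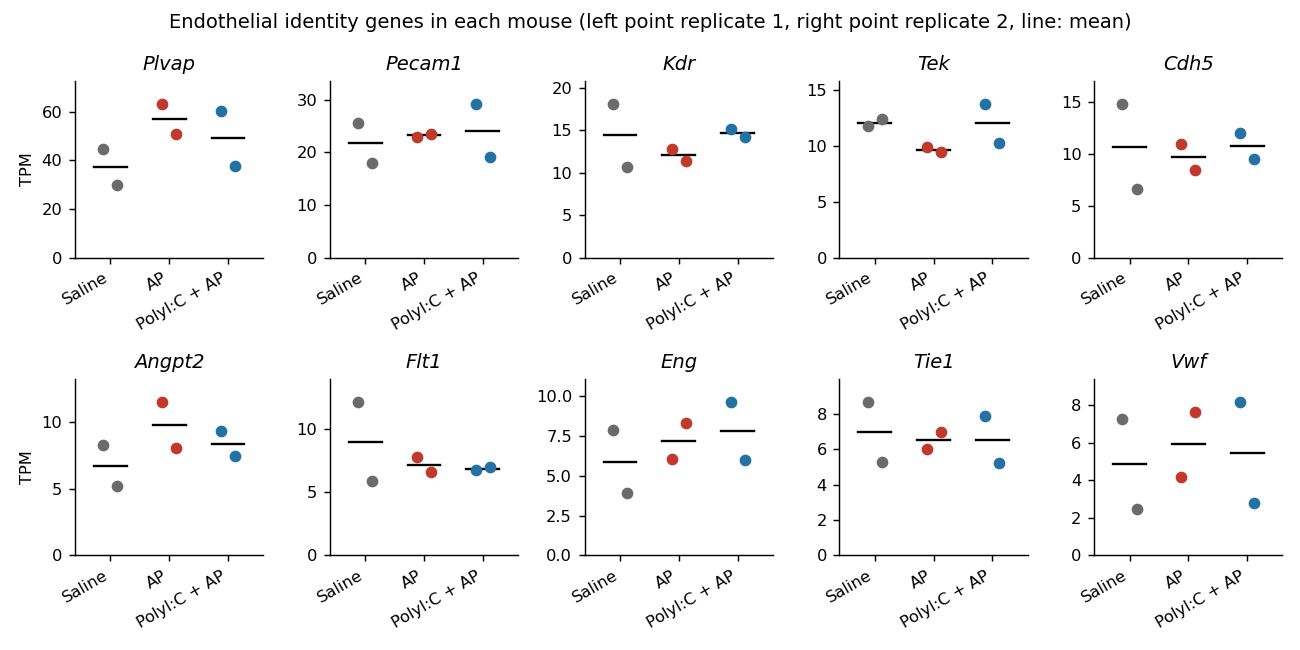
Level of each of the 10 endothelial identity genes in TPM (vertical axes, each from 0) in the saline, AP and pretreated mice; each point is 1 mouse and the line is the mean of the 2 mice. The points of the 3 groups overlap for most genes, and the 2 saline mice lie far apart for Cdh5 (14.8 and 6.60 TPM), Flt1 (12.1 and 5.83 TPM) and Vwf (7.25 and 2.48 TPM).

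The order of the levels was clear only at its top. Plvap was above Pecam1 in 6 of 6 mice, by 1.66 to 2.74 times, and Pecam1 was above Kdr in 6 of 6 mice, by 1.35 to 2.06 times. Kdr exceeded Tek in 5 of 6 mice and Cdh5 exceeded Angpt2 in 5 of 6 mice. The remaining neighbours, Tek and Cdh5, Angpt2 and Flt1, Flt1 and Eng, Eng and Tie1, and Tie1 and Vwf, kept their order in 4 of 6 mice each and so did not differ beyond the spread between mice.

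No member passed the test in any of the 3 comparisons. A gene was called raised or reduced when its adjusted p (limma, with Benjamini-Hochberg adjustment over all 16814 tested genes) was at most 0.05 and its level differed at least 2-fold. For AP against saline 0 of 10 members were called, while 22.2% of all tested genes were called (18.2% raised and 4.03% reduced). For pretreated AP against AP 0 of 10 were called beside 0.845% of all tested genes (0.44% raised and 0.404% reduced), a share at which no call among 10 genes says little. Against saline, 0 of 10 were called in the pretreated mice beside 19.9% of all tested genes (16.9% raised and 2.97% reduced). At an unadjusted p of 0.05 with 2-fold the count was also 0 in each comparison, where 25.1%, 4.33% and 22.8% of all tested genes passed, and voom on estimated reads likewise called 0 members in each, with 1 member at an unadjusted p of at most 0.05 for AP against saline. With groups of 2 mice an exact permutation test of a single gene cannot go below a p of 0.333, so the calls rest on the spread that the model shares across genes.

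The median log2 fold change of the 10 members was 0.04 for AP against saline, where the median tested gene was at 0.45. It was 0.00 for pretreated AP against AP, beside 0.04 for all tested genes, and 0.12 for pretreated AP against saline, beside 0.48. On the deposited scale the members therefore stayed near 0 while most genes of the tissue lay higher in both caerulein groups. When the libraries were rescaled by median-of-ratios size factors, which brought the median of all tested genes to 0.06 in both comparisons against saline, the members' median moved to -0.38 for AP and -0.32 for pretreated AP, with 2 of 10 and 0 of 10 members above 0. The members' direction against saline thus depended on the scaling, and no member was called on either scale.

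**Figure D2:**
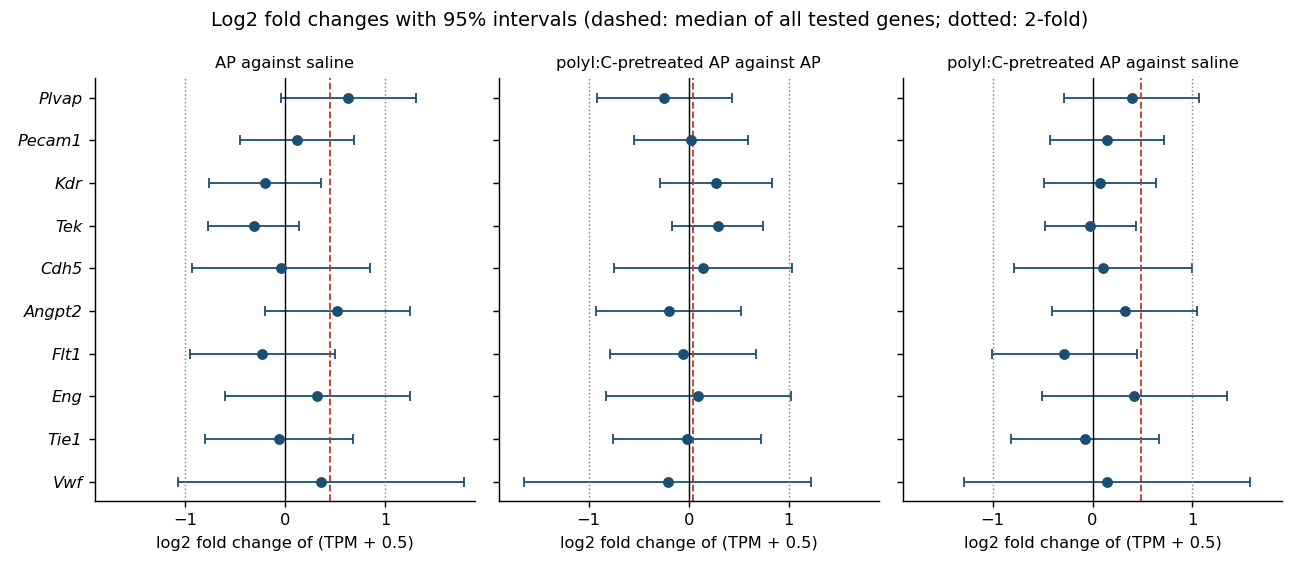
Log2 fold change of TPM + 0.5 (horizontal axis) of each member in the 3 comparisons, with 95% intervals of the limma model; the dashed line is the median of all tested genes and the dotted lines mark 2-fold. On this scale, TPM as deposited, every interval includes 0. For AP against saline 6 of 10 intervals lie between the 2-fold lines, while those of Plvap, Angpt2, Eng and Vwf reach past them.

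The junction and adhesion genes were Pecam1 and Cdh5. Pecam1 (ENSMUSG00000020717, GRCm38 chromosome 11, 106654217 to 106750628, minus strand) encodes a homophilic adhesion molecule of the cell borders through which leukocytes pass. It stood at 25.5 and 17.9 TPM after saline, 23.0 and 23.5 TPM in AP, and 29.2 and 19.1 TPM after pretreatment. The AP mice lay within the range of the saline mice, and the pretreated mice spanned the AP mice. Its log2 fold change was 0.12 (SE 0.24, 95% interval -0.45 to 0.69, adjusted p 0.735) for AP against saline and 0.02 (95% interval -0.55 to 0.59) for pretreated AP against AP.

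Cdh5 (ENSMUSG00000031871, chromosome 8, 104101625 to 104144511, plus strand) encodes VE-cadherin, the cadherin of endothelial adherens junctions, on which the barrier against leakage rests. Its level was 14.8 and 6.60 TPM after saline, 11 and 8.44 TPM in AP, and 12 and 9.5 TPM after pretreatment. All 4 caerulein mice fell between the 2 saline mice. The log2 fold change for AP against saline was -0.04 (SE 0.37, 95% interval -0.93 to 0.85, adjusted p 0.95), so a fall of nearly 2-fold remained within the interval. After median-of-ratios scaling it was -0.45 (95% interval -1.33 to 0.43, adjusted p 0.40).

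The VEGF receptors were Kdr and Flt1. Kdr (ENSMUSG00000062960, chromosome 5, 75932827 to 75978458, minus strand) encodes the receptor that carries most of the mitogenic and permeability response to VEGF-A. It was measured at 18.1 and 10.7 TPM after saline, 12.7 and 11.4 TPM in AP, and 15.2 and 14.1 TPM after pretreatment. Both pretreated mice lay above both AP mice, and both AP mice lay within the saline range. Its log2 fold change was -0.20 (95% interval -0.76 to 0.36, adjusted p 0.544) for AP against saline and 0.27 (95% interval -0.29 to 0.83, adjusted p 0.684) for pretreated AP against AP. After median-of-ratios scaling the value for AP against saline was -0.61 (95% interval -1.16 to -0.06, adjusted p 0.086).

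Flt1 (ENSMUSG00000029648, chromosome 5, 147561604 to 147726011, minus strand) encodes a receptor that binds VEGF-A tightly, signals weakly and, in its soluble form, acts as a decoy. Its values were 12.1 and 5.83 TPM after saline, 7.74 and 6.59 TPM in AP, and 6.73 and 6.96 TPM after pretreatment. The caerulein mice sat close together near the lower saline mouse. On the log2 scale the difference was -0.23 (95% interval -0.95 to 0.50, adjusted p 0.599) for AP and -0.28 (95% interval -1.01 to 0.44, adjusted p 0.5) for pretreated AP, both against saline. After median-of-ratios scaling these were -0.63 (adjusted p 0.163) and -0.71 (adjusted p 0.134). Soluble and full-length Flt1 were not separated in these values per gene.

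The Tie axis held 2 receptors and 1 ligand. Tek (ENSMUSG00000006386, chromosome 4, 94739289 to 94874976, plus strand) encodes Tie2, the receptor of the angiopoietins. It had the narrowest spread between saline mice of all members, with 11.8 and 12.4 TPM. The AP mice had 9.85 and 9.40 TPM and the pretreated mice 13.7 and 10.3 TPM. Tek was the only member for which both AP mice lay below both saline mice, and both pretreated mice lay above both AP mice. The log2 fold change for AP against saline was -0.31 (SE 0.19, 95% interval -0.77 to 0.14, adjusted p 0.240). After median-of-ratios scaling it was -0.73 (95% interval -1.16 to -0.29, adjusted p 0.0240), which passed the limit on p but not that of 2-fold. For pretreated AP against AP it was 0.29 (95% interval -0.16 to 0.74, adjusted p 0.578).

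Tie1 (ENSMUSG00000033191, chromosome 4, 118471191 to 118490061, minus strand), an orphan receptor that pairs with Tie2 and modulates it, stood at 8.70 and 5.26 TPM after saline, 6.04 and 6.97 TPM in AP, and 7.86 and 5.21 TPM after pretreatment. The AP mice fell within the saline range. The log2 fold change for AP against saline was -0.06 (95% interval -0.80 to 0.68, adjusted p 0.908).

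Angpt2 (ENSMUSG00000031465, chromosome 8, 18690263 to 18741562, minus strand) encodes angiopoietin-2, a ligand that endothelial cells store and release on activation and that can block Tie2. Levels were 8.29 and 5.20 TPM after saline, 11.6 and 8.08 TPM in AP, and 9.33 and 7.49 TPM after pretreatment. The lower AP mouse lay just below the higher saline mouse, so the groups overlapped. The log2 fold change for AP against saline was 0.52 (SE 0.30, 95% interval -0.20 to 1.25, adjusted p 0.220), the second highest among the members, and it was 0.12 after median-of-ratios scaling. Release of the stored protein would not show in these values.

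The ratios of Angpt2 to its partners within each mouse were higher in the AP mice. The ratio of Angpt2 to Tek in TPM was 0.704 and 0.420 after saline, 1.17 and 0.860 in AP, and 0.680 and 0.729 after pretreatment. The ratio of Angpt2 to Angpt1, the agonist ligand made mainly by mural and other stromal cells, was 0.360 and 0.185 after saline, 1.00 and 1.06 in AP, and 0.882 and 0.406 after pretreatment. In each AP mouse both ratios exceeded those of the other 4 mice. Both parts of each ratio moved: for AP against saline the log2 fold change was 0.52 for Angpt2, -0.31 for Tek and -1.39 for Angpt1. Of these only the fall of Angpt1 was called, with limits given below. A ratio within a mouse does not depend on the scaling of the library. These are 2 of 7 ratios that were computed in 3 comparisons, they were chosen after the values were seen, and 2 mice against 2 allow no exact p below 0.333.

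Eng (ENSMUSG00000026814, chromosome 2, 32646595 to 32682669, plus strand) encodes endoglin, an endothelial co-receptor for BMP9 and TGF-beta. Its values were 7.87 and 3.92 TPM after saline, 6.08 and 8.30 TPM in AP, and 9.66 and 6.02 TPM after pretreatment. All 3 groups overlapped, and the log2 fold change for AP against saline was 0.32 (95% interval -0.60 to 1.25, adjusted p 0.548). Of its exon bases, 1.51% also belong to Fpgs on the opposite strand, and the other 9 members share none with another gene.

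Plvap (ENSMUSG00000034845, chromosome 8, 71497765 to 71511752, minus strand), the protein of the fenestral diaphragms, was the highest member in every mouse. Levels were 44.5 and 29.7 TPM after saline, 63.1 and 50.9 TPM in AP, and 60.3 and 37.8 TPM after pretreatment. It was the only member for which both AP mice lay above both saline mice, in a comparison in which 52.6% of all tested genes did so. The log2 fold change for AP against saline was 0.63 (SE 0.28, 95% interval -0.04 to 1.31, adjusted p 0.122), a fold of 1.55 (95% interval 0.971 to 2.48), and it was 0.21 (adjusted p 0.613) after median-of-ratios scaling. Relative to VE-cadherin in the same mouse, Plvap was 3.0 and 4.50 times as high in the saline mice, 5.74 and 6.02 times in the AP mice, and 5.01 and 3.98 times in the pretreated mice, a ratio taken from the same 7.

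Vwf (ENSMUSG00000001930, chromosome 6, 125546774 to 125686679, plus strand) encodes von Willebrand factor, which endothelial cells keep in Weibel-Palade bodies and megakaryocytes pass on to platelets. It stood at 7.25 and 2.48 TPM after saline, 4.16 and 7.66 TPM in AP, and 8.18 and 2.77 TPM after pretreatment. Each group held a low and a high mouse, and Vwf had the widest interval of all members (log2 fold change 0.36, SE 0.60, 95% interval -1.07 to 1.79, adjusted p 0.677 for AP against saline). The summed level of 10 platelet markers was 36.5 and 17.6 TPM, 80.5 and 55.3 TPM, and 17.1 and 17.3 TPM in the same order of groups. Of that sum Pf4 alone held 27.2 and 4.96 TPM, 69.9 and 39.8 TPM, and 7.02 and 7.59 TPM. Only 3 of the 6 tested platelet markers had a log2 fold change above 0 for AP against saline, so the sum follows Pf4 rather than the list. The part of platelets in the Vwf values was not tested. Gp1bb and Gp6, receptors of platelets, were listed at 0 in 5 of 6 mice each.

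Counted by overlap alone, 1 member lay above and 1 below the saline range in both AP mice, where 69.1% of all tested genes did not overlap (52.6% higher and 16.4% lower). Between pretreated and AP mice 2 members did not overlap, Kdr and Tek, both higher after pretreatment, beside 49.8% of all tested genes (27.7% higher and 22.1% lower). No member separated pretreated AP from saline mice, beside 68.4% of all tested genes (54.4% higher and 14% lower).

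Most members moved together between the mice of 1 group. Saline mouse 1 was above saline mouse 2 in 9 of 10 members, all but Tek, with a median log2 difference of 0.70. Of all tested genes 48.2% were higher in saline mouse 1, with a median difference of 0. The pretreated mice behaved alike, with mouse 1 above mouse 2 in 9 of 10 members, all but Flt1, by a median of 0.48 against 0.04 over all tested genes. The AP mice showed no such shift, with 6 of 10 members higher in mouse 1 and a median of 0.11. The 10 members are not independent of each other, since they come from the same cells of the same 6 libraries.

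Most genes of 2 other vessel lists shifted the same way as the members between the saline mice and between the pretreated mice. Of 25 further genes of endothelium in general, 22 were higher in saline mouse 1, with a median log2 difference of 0.46, and 24 were higher in pretreated mouse 1, with a median of 0.36. The tested markers of mural cells, the pericytes and smooth muscle cells around vessels, were higher in saline mouse 1 in 9 of 9 cases, by a median of 0.75, and higher in pretreated mouse 1 in 7 of 9. The summed mural level was 133 and 64.1 TPM after saline, 157 and 162 TPM in AP, and 136 and 100 TPM after pretreatment. Whether the sampled pieces of tissue differed in vessel content was not tested. Leaving out saline mouse 2 moved the members' median for AP against saline from 0.04 to -0.30, and leaving out saline mouse 1 moved it to 0.44, with no member called in either case.

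**Figure D3:**
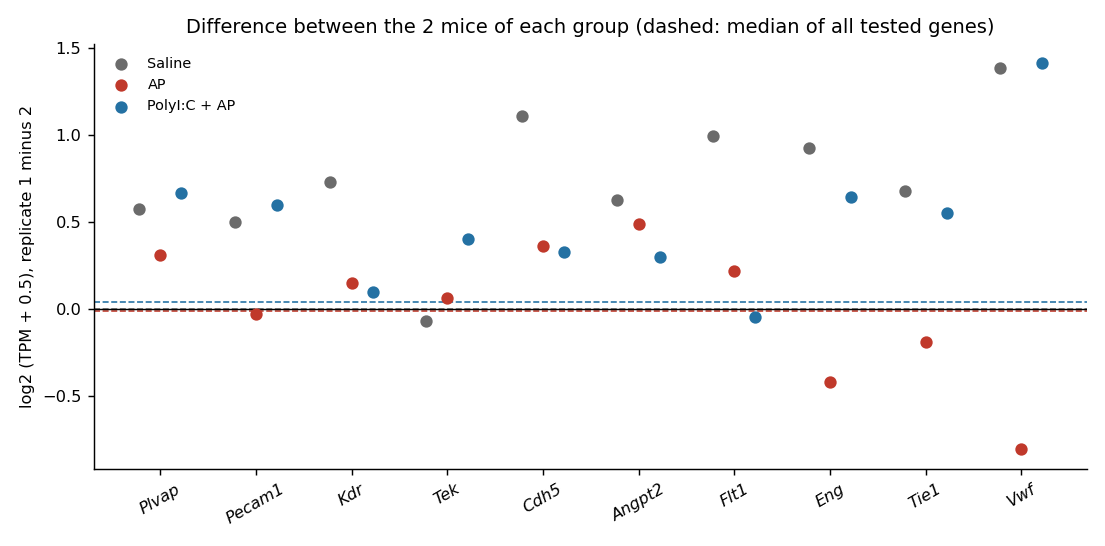
Difference between the 2 mice of each group in log2(TPM + 0.5), replicate 1 minus replicate 2 (vertical axis), for each member; dashed lines are the medians over all tested genes. In the saline and the pretreated AP groups 9 of 10 members lie above 0, and in the AP group 6 of 10 do.

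The genes whose levels over the 6 mice were most like the median profile of the members were Clec14a (Pearson r 0.994), Myh11 (r 0.980), Gm11719 (r 0.979), Klf13 (r 0.973) and Gm10988 (r 0.972). They were taken from 12036 genes averaging 5 TPM or more, whose median r was 0.13 and of which 230 (1.91%) reached 0.8. That limit was reached by 3 of 16 other genes of endothelium in general (median r 0.56) and by 5 of 65 wider vascular genes (median r 0.36). Clec14a, an endothelial C-type lectin, had 14.3 and 6.50 TPM after saline, 9.49 and 10.7 TPM in AP, and 13.2 and 8.69 TPM after pretreatment. Myh11, the myosin heavy chain of smooth muscle, had 18.5 and 6.60 TPM, 10.4 and 12.1 TPM, and 17.6 and 11.5 TPM. Both profiles turn on the gap between the 2 saline mice and between the 2 pretreated mice. The 6 libraries are the only points, and those of the saline mice are the shallowest. Among the members themselves r with their own median ran from 0.925 for Pecam1 down to 0.656 for Flt1, and Tek stood apart at 0.18. Each member helped to form that median, so its r is partly built in.

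The start-site flanks of 5 members are shown because their transcripts were read beside those of the ETS factors that bind many endothelial promoters. RefSeq (GRCm38.p6) promoters were matched for Eng, Tek, Tie1, Kdr and Flt1. Each line gives a stretch upstream of the start site on the gene's strand, clear of annotated exons, and capitals mark AGGAAG or CGGAAG, cores that ETS factors bind, on either strand. The stretches are Eng chr2:32646495-32646594 (plus), Tek chr4:94739189-94739288 (plus), Tie1 chr4:118490062-118490099 (minus), Kdr chr5:75978459-75978558 (minus) and Flt1 chr5:147726012-147726111 (minus).
Eng: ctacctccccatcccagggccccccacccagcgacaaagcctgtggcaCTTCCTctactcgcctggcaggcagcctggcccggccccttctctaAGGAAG
Tek: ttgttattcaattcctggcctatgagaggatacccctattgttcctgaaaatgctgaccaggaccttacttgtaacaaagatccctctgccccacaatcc
Tie1: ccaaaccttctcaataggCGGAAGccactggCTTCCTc
Kdr: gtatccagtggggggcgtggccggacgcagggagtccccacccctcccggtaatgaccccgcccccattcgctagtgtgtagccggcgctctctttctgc
Flt1: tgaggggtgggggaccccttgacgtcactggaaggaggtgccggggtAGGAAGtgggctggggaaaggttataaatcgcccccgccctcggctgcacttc

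Within the 250 bases before the start, AGGAAG occurred in 3 of the 5 promoters (Eng, Tie1 and Flt1), and in 29.5% of 32851 mouse promoters. CGGAAG occurred in 1 of 5, Tie1, and in 13.6% of all. The core of the interferon-stimulated response element, a pair of GAAA runs 2 bases apart, occurred in 0 of 5 and in 2.98% of all, and its absence concerns these letters in this window only. The Eng matches lay 52 and 6 bases before the start. Among the ETS factors, Ets1 rose from 9.53 and 8.12 TPM after saline to 26.4 and 35.3 TPM in AP (log2 fold change 1.74, SE 0.16, adjusted p 0.000421), and Fli1 from 8.13 and 9.32 TPM to 17.3 and 20.7 TPM (1.08, SE 0.24, adjusted p 0.0126). Erg, the ETS factor most restricted to endothelium, had 1.16 and 1.70 TPM after saline and 2.58 and 1.89 TPM in AP and was not called (adjusted p 0.466). After pretreatment Ets1 stood at 22.3 and 21.9 TPM and Fli1 at 12.6 and 8.27 TPM. Ets1 and Fli1 are also made by leukocytes, some of whose markers rose in the AP mice as described further on. The part of leukocytes in these values was not tested. The call of Fli1 was lost after median-of-ratios scaling (0.66, adjusted p 0.0745), and that of Ets1 was kept in 18 of 18 alternatives.

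The wider vascular genes were read from 10 lists of 105 genes, of which 104 had values and 98 were tested. For AP against saline 18 were raised and 4 reduced, which is near the 18.2% raised and 4.03% reduced among all tested genes, and the median log2 fold change of the 98 was 0.34. After median-of-ratios scaling 11 were raised and 6 reduced. Between pretreated and AP mice 0 were raised and 1 reduced. Between pretreated and saline mice 12 were raised and 1 reduced, and 8 and 5 after median-of-ratios scaling.

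**Figure D4:**
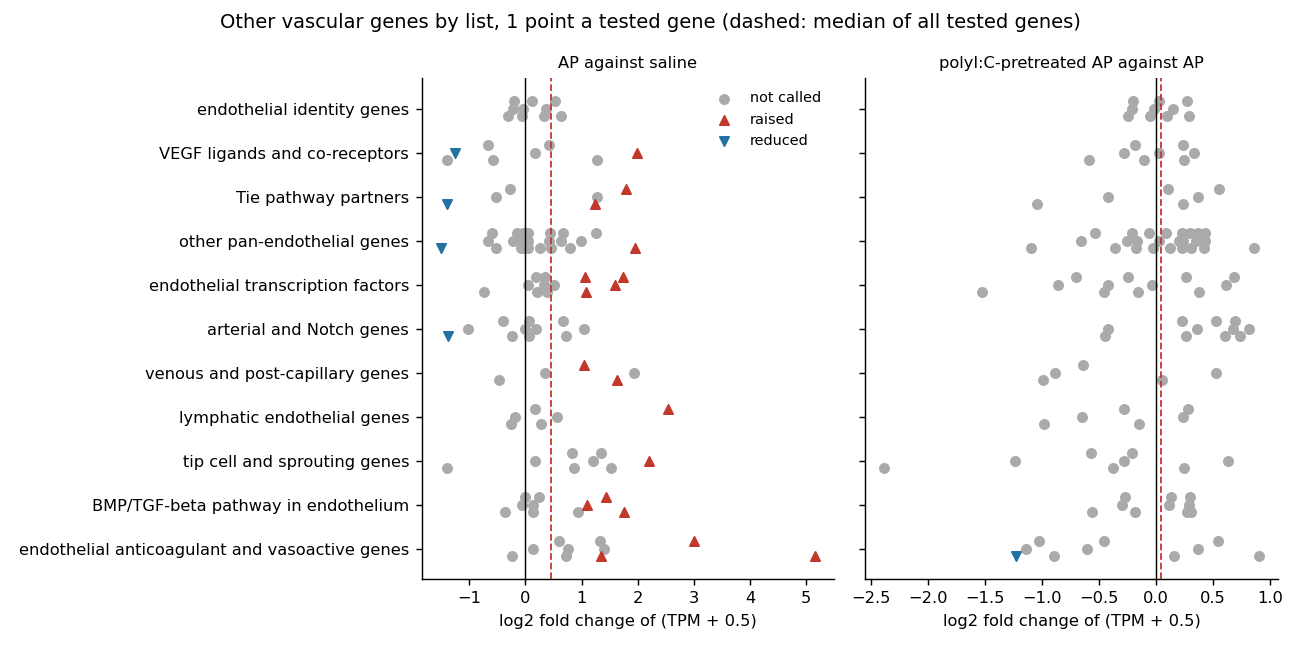
Log2 fold change of TPM + 0.5 (horizontal axes) of each tested gene in the endothelial identity set and the 10 further vascular lists, for AP against saline (left) and pretreated AP against AP (right); triangles are called genes and the dashed line is the median of all tested genes. The identity genes lie between -0.31 and 0.63 on the left, and the called genes of other lists reach 5.16 for Procr.

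Closest to the members were the 25 other genes of endothelium in general. Of these, 1 was raised and 1 reduced for AP against saline, and their median log2 fold change was 0.04, the same as that of the members. Cd93, a lectin of endothelium that monocytes carry too, rose from 15.2 and 8.45 TPM to 47.5 and 42.7 TPM (log2 fold change 1.94, adjusted p 0.00168) and stood at 23.7 and 18.3 TPM after pretreatment. Gpihbp1, which carries lipoprotein lipase to the capillary lumen, fell from 10.4 and 8.14 TPM to 3.17 and 2.68 TPM (-1.51, adjusted p 0.0160) and stood at 7.65 and 4.18 TPM after polyI:C pretreatment. Its call was lost when any 1 of the saline or AP mice was left out. The other 23 were not called, among them Cldn5, Emcn, Egfl7 and Esam.

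The ligands and co-receptors of the VEGF receptors followed. Of 8 VEGF ligands and co-receptors 1 was raised and 1 reduced for AP against saline. Nrp1, a co-receptor of Kdr that epithelial, stromal and myeloid cells also make, rose from 37.7 and 33.3 TPM to 152 and 132 TPM (log2 fold change 1.98, adjusted p 7.59e-05) and stood at 124 and 124 TPM after pretreatment. Vegfb, a ligand of Flt1, fell from 19.9 and 19.5 TPM to 9.55 and 6.68 TPM (-1.25, adjusted p 0.0132). Pgf, the other ligand specific to Flt1, had 47.2 and 38.3 TPM after saline and 19.5 and 12.9 TPM in AP, and just missed the limit (-1.40, adjusted p 0.0542). Vegfa had 55.3 and 63.5 TPM after saline and 41.8 and 37.9 TPM in AP, with a log2 fold change of -0.57 (adjusted p 0.00987) that is short of 2-fold.

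Of 6 partners of the Tie axis 2 were raised and 1 reduced for AP against saline. Angpt1 fell from 23.0 and 28.1 TPM to 11.6 and 7.65 TPM (log2 fold change -1.39, adjusted p 0.0108), and the pretreated mice had 10.6 and 18.4 TPM. The fall was not called when any 1 of the saline or AP mice was left out. Itga5, the fibronectin receptor chain through which Angpt2 can act without Tie2, rose from 3.66 and 2.49 TPM to 11.8 and 11.5 TPM (1.79, adjusted p 0.00127). Svep1, a matrix protein that binds Tie1, rose from 9.73 and 4.84 TPM to 18.7 and 15.2 TPM (1.23, adjusted p 0.0147), a call lost after median-of-ratios scaling (0.82, adjusted p 0.0730). Ptprb, the phosphatase VE-PTP that restrains Tie2, was not called (-0.52, adjusted p 0.229).

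The transcription factor list had 4 of 12 tested genes raised and none reduced for AP against saline. Besides Ets1 and Fli1 these were Lyl1, a factor of endothelial and blood cells (log2 fold change 1.60, adjusted p 0.0286, 1.22 and adjusted p 0.0806 after median-of-ratios scaling), and Heyl, a Notch effector of mural cells (1.06, adjusted p 0.0298). Heyl kept its call in 4 of 18 alternatives. The flow-dependent factors Klf2 and Klf4 were not called. Of 11 tested arterial and Notch genes 1 was reduced, Notch1, from 50.9 and 37.6 TPM to 18.2 and 15.1 TPM (-1.37, adjusted p 0.00439), and Notch1 is not restricted to endothelium. The arterial genes Gja5, Gja4, Efnb2 and Dll4 were not called.

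Venous and post-capillary genes, the segment where leukocytes leave the blood, had 2 of 5 tested genes raised for AP against saline. Vcam1, the adhesion ligand of integrin alpha4 beta1, rose from 3.55 and 2.36 TPM to 8.63 and 11.7 TPM (log2 fold change 1.64, adjusted p 0.00782), and Il1r1 from 6.79 and 5.63 TPM to 12.7 and 13.8 TPM (1.04, adjusted p 0.00365). Il1r1 dropped below 2-fold after median-of-ratios scaling (0.63). The selectins Sele and Selp lay below the filter, with at most 1.02 and 1.76 TPM in any mouse. Ackr1, the chemokine receptor of venules, was listed at 0 in 1 saline mouse and was not called (adjusted p 0.148).

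Of 6 lymphatic genes with values only Pdpn was raised for AP against saline, from 10.4 and 8.53 TPM to 58.8 and 55.5 TPM (log2 fold change 2.54, adjusted p 0.000147), and it stood at 30.4 and 26.9 TPM after pretreatment. Podoplanin, its product, is also made by fibroblasts and inflammatory macrophages. The defining lymphatic genes Prox1 (-0.26), Lyve1 (0.57), Flt4 (0.18), Reln (0.28) and Mmrn1 (-0.19) were not called. Of 8 tip cell and sprouting genes 1 was raised, the netrin receptor Unc5b, from 5.27 and 2.59 TPM to 21 and 17.1 TPM (2.20, adjusted p 0.00170). The tip cell genes Esm1, Apln and Aplnr were not called for AP against saline, and Esm1 was raised for pretreated AP against saline (1.5, adjusted p 0.0386), a call kept in 4 of 18 alternatives.

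Around Eng, the BMP and TGF-beta list had 3 of 10 genes raised for AP against saline. Tgfbr2 rose from 15.3 and 8.89 TPM to 39.2 and 42.6 TPM (log2 fold change 1.76, adjusted p 0.00152), Smad1 from 12.5 and 14.2 TPM to 37.9 and 36.3 TPM (1.44, adjusted p 0.000253), and Id3 from 12.8 and 11 TPM to 28 and 24.1 TPM (1.09, adjusted p 0.0231). Id3 lost its call after median-of-ratios scaling (0.67, adjusted p 0.134). Acvrl1, the receptor ALK1 that signals together with endoglin, was not called (0.93, adjusted p 0.0683).

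The anticoagulant and vasoactive list had 3 of 10 genes raised for AP against saline, among them Procr with the highest fold of the 98 genes. Procr, the endothelial protein C receptor, rose from 7.31 and 6.90 TPM to 299.8 and 246 TPM (log2 fold change 5.16, SE 0.14, adjusted p 1.28e-05). In the pretreated mice it stood at 126 and 105 TPM, the only wider vascular gene called between these and the AP mice (-1.23, adjusted p 0.0204), and 8 of 18 alternatives kept that call. Plat, tissue plasminogen activator, rose from 6.11 and 3.87 TPM to 33.2 and 54.5 TPM (3.0, adjusted p 0.000433), and Tfpi, the inhibitor of the tissue factor pathway, from 1.5 and 1.16 TPM to 4.26 and 4.03 TPM (1.35, adjusted p 0.0202). Tfpi lost its call after median-of-ratios scaling, and when any 1 of the saline or AP mice was left out. Thbd, thrombomodulin, the partner of Procr on endothelium, was not called (0.60, adjusted p 0.0788), nor was the nitric oxide synthase Nos3 (-0.24, adjusted p 0.699). Ace, angiotensin-converting enzyme, was raised for pretreated AP against saline (1.67, adjusted p 0.0122) and not for AP against saline (0.77, adjusted p 0.146).

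Between pretreated and AP mice Procr alone of the wider genes was called on log2(TPM + 0.5), and others are given by value. The count depended on the method. Voom on estimated reads called 7 of the 98 reduced and quantile normalization 3, while a constant prior and a prior following the mean called 0. Cxcr4, the receptor of CXCL12 on tip cells and on leukocytes, had 11.1 and 17 TPM in AP and 3.52 and 1.34 TPM after pretreatment (log2 fold change -2.38, adjusted p 0.115). Lyl1 had 9.36 and 9.25 TPM in AP and 4.45 and 1.85 TPM after pretreatment (-1.52, adjusted p 0.195). Ednrb, an endothelin receptor, had 15.9 and 15.7 TPM in AP and 6.67 and 7.12 TPM after pretreatment (-1.14, adjusted p 0.270). In these genes both pretreated mice lay below both AP mice, but the differences did not pass the test. Aplnr, the apelin receptor (-1.24, adjusted p 0.461), Cd93 (-1.10, adjusted p 0.131), Plat (-1.03, adjusted p 0.173), Svep1 (-1.04, adjusted p 0.173), Il1r1 (-0.99, adjusted p 0.0581) and Pdpn (-0.99, adjusted p 0.0582) were not called either. The highest log2 fold change of the 98 was that of Ace (0.90, adjusted p 0.350), with 12.4 and 14.3 TPM in AP and 25.4 and 25.2 TPM after pretreatment. Dll4, a Notch ligand of arterial and tip cells, stood at 2.11 and 1.5 TPM in AP and 3.52 and 3.48 TPM after pretreatment (0.81, adjusted p 0.369). Gpihbp1 (0.85, adjusted p 0.366) and Angpt1 (0.55, adjusted p 0.497) were other genes with log2 fold changes above 0.

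Single mice bore on the wider calls for AP against saline. Without AP mouse 2 the 18 raised and 4 reduced genes became 10 and 0, without AP mouse 1 they became 11 and 1, and without saline mouse 2 they became 11 and 3. Notch1 was lost without either AP mouse, Vcam1 without either AP mouse or saline mouse 2, and Vegfb without either saline mouse or AP mouse 2. Lyl1 and Id3 were lost when any 1 of the saline or AP mice was left out, Fli1 without either AP mouse or saline mouse 1, and Il1r1 without saline mouse 2 or AP mouse 2. Svep1 and Heyl were lost when any 1 mouse other than saline mouse 1 was left out. Cd93, Procr, Pdpn, Unc5b, Plat, Nrp1, Ets1, Tgfbr2 and Itga5 were called in 18 of 18 alternatives.

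Markers of other cells moved between the same mice. Of 10 macrophage and monocyte markers 6 were raised for AP against saline, and their summed level was 77.0 to 112 TPM in the saline mice, 475 to 501 TPM in the AP mice, and 285 to 294 TPM in the pretreated mice, with 5 of 10 reduced for pretreated AP against AP. Cd14 made up most of the sum in the pretreated mice, with 216 and 209 TPM. The other 9 markers summed to 96.8 and 63.1 TPM after saline, 257 and 279 TPM in AP, and 78.4 and 76.2 TPM after pretreatment, so that the pretreated mice lay within the saline range, a sum formed after the values were seen. For pretreated AP against saline 3 of the 10 were raised (Cd68, Cd14 and Fcgr1) and 1 was reduced. The reduced gene was Csf1r, the receptor that macrophages need to survive (-1.01, adjusted p 0.00296). Of all tested genes 16.9% were raised and 2.97% reduced in that comparison. None of the 10 was at 0 in any mouse. Of 7 fibroblast and stellate cell markers 4 were raised for AP against saline and of 6 ductal markers 4 were raised, the latter with sums of 203 to 205 TPM, 1918 to 2000 TPM and 1636 to 1789 TPM. Of 4 tested neutrophil markers 2 were raised, with Elane at 0 in 4 of 6 mice. Of 14 acinar markers 5 had values. Of these 3 were reduced for AP against saline, and 3 (Amy2a5, Bhlha15 and Rbpjl) were raised for pretreated AP against AP, comparisons that share the AP mice. Of 9 mural markers 0 were called. The part of these cells in the vascular genes that rose was not tested. Several of those genes are made by cells other than endothelium too, as is the member Vwf.

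**Figure D5:**
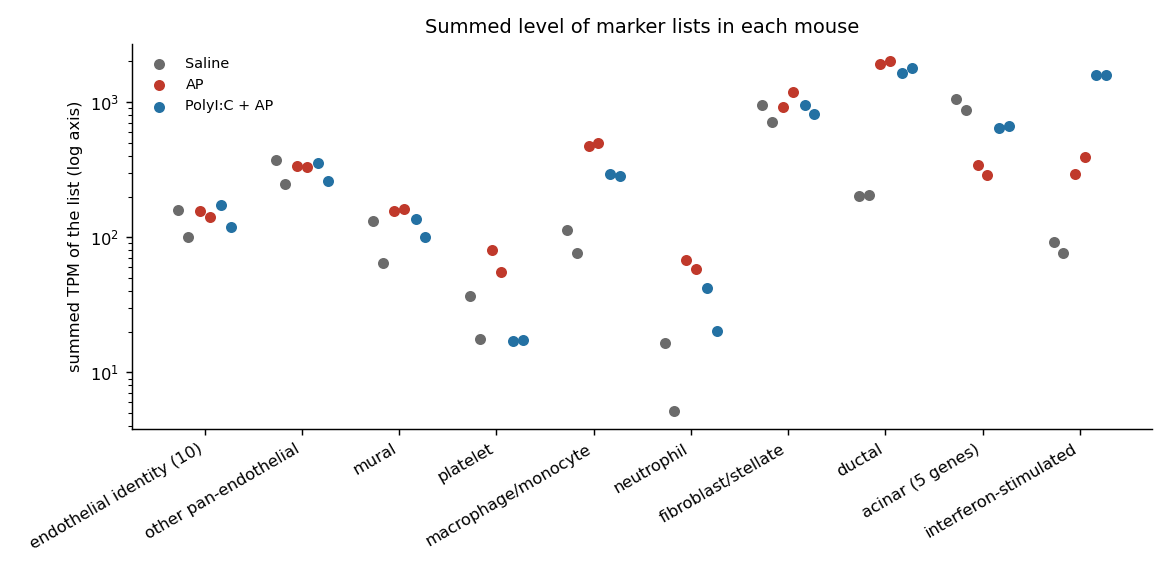
Summed TPM of marker lists (vertical axis, logarithmic) in each mouse; each point is 1 mouse. The endothelial identity and other pan-endothelial sums overlap between the 3 groups, while ductal sums are higher in all 4 caerulein mice than in the saline mice. The macrophage sums are too, but without Cd14 those of the pretreated mice (78.4 and 76.2 TPM) lie within the saline range. Of the markers left in that sum, Cd68 and Fcgr1 were raised and Csf1r was reduced for pretreated AP against saline.

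Interferon-stimulated genes served as a check of the polyI:C treatment. Of 10 such genes 9 were already raised for AP against saline, without polyI:C, beside 18.2% of all tested genes. For pretreated AP against AP 6 were raised, beside 0.44% of all tested genes, and 9 of 10 had a log2 fold change above 0. Their summed level was 76.8 to 92.3 TPM in the saline mice, 294 to 393 TPM in the AP mice, and 1595 to 1597 TPM in the pretreated mice. Bst2 alone held 961 and 994 TPM of the sum in the pretreated mice. For pretreated AP against AP the members' log2 fold changes ran from -0.24 for Plvap to 0.29 for Tek. Of their intervals 7 of 10 lay within 2-fold, those of Cdh5, Eng and Vwf reaching past it.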

How the data were processed

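Pancreas RNA of 2 saline mice, 2 AP mice and 2 AP mice pretreated with polyI:C was sequenced in 1 lane. Per the labels, the authors used Trimmomatic, STAR (mm10), HTSeq and DESeq2, with versions not given in the sources used here. The labels name 2 library kits. The authors deposited TPM per Ensembl gene, and how counts became TPM, and whether counting used strand, is not given.

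TPM values were used as deposited. They summed to 1e+06 over the listed genes of each sample, although only 5 of 14 acinar markers looked up had values. Levels are therefore shares of the listed genes only. Exon lengths, symbols and coordinates came from GENCODE M21 (GRCm38, the assembly of mm10), which held 22490 of the 22556 identifiers. limma 3.58.1 (R 4.3.3) was run on log2(TPM + 0.5) for genes averaging 1 TPM or more, with 1 coefficient per group over all 6 mice, a variance prior following log2(mean TPM × exon length + 1), and Benjamini-Hochberg adjustment. A fold change is on this scale and understates changes of low genes. Reads per library were estimated from the spacing of low TPM values: 51.1% to 62.0% lay within 0.1 of whole reads, against 19.4% to 20.6% with shuffled lengths, too few to recover counts.

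Groups came from the labels, which do not say whether same-numbered mice were handled together. The wider genes named are, of each list, the 2 with the largest absolute log2 fold change for AP against saline and for pretreated against AP, and the 5 most like the members in pattern. Further called or defining genes of these lists were named after their values were seen. The members and lists were chosen with earlier results of these data known. Proliferation, lymphocyte and islet lists were also computed. The code was tested on simulated data. Alternatives covered pseudocounts, filters, scalings, priors, calling rules, voom, a replicate block and leaving out each mouse.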

Additional observations from a re-analysis of the deposited data

How the results depend on the processing

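No member was called raised or reduced in any comparison under any alternative tried. Over 540 member values under alternatives, 66 changed sign and 0 crossed the threshold. The members' median log2 fold change for AP against saline (0.04) moved to -0.38 with median-of-ratios scaling and to -0.44 with quantile normalization, and ranged from -0.30 to 0.44 when 1 mouse was left out. With pretreated AP against saline (0.12) it moved to -0.32 with median-of-ratios scaling, -0.43 with quantile normalization and -0.23 with voom, and ranged from -0.20 to 0.54 without 1 mouse. For pretreated AP against AP (0.00) that range was -0.25 to 0.31. The scalings take the general rise of the median gene out of the values by construction. An adjusted p of at most 0.05 without 2-fold was reached by Tek for AP against saline with both scalings (0.0240 and 0.0252), by Kdr (0.0270) and Flt1 (0.0198) without saline mouse 2, by Flt1 for pretreated AP against saline without that mouse (0.0171), and by Plvap with the replicate block.

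Over genes as a whole, same-numbered mice did not deviate together (correlations 0.01, -0.00 and 0.04). The members did so in part, since 9 of 10 were higher in mouse 1 in both the saline and the pretreated group, and 6 of 10 in AP. These values cannot settle whether same-numbered mice were handled together, which the labels do not say. The replicate block gave Plvap 0.63 with an adjusted p of 0.0204 for AP against saline, called 0 members, and changed the calls over all genes from 3730 to 3646, 142 to 124 and 3338 to 3284.

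Over all tested genes, the raised and reduced counts for AP against saline were 3053 and 677, 1566 and 1221 with median-of-ratios scaling, 1408 and 1320 with quantile normalization, and 1795 and 976 with voom. The same counts for pretreated AP against saline were 2838 and 500, 1325 and 982, 1137 and 1102, and 1501 and 810. With no fold limit the calls were 6794 and 6590. For AP against saline they numbered 2401 without AP mouse 2. For pretreated AP against AP the 142 calls became 28 with a prior following the mean, 41 with a constant prior, 90 with no filter, 80 when scaled to pan-endothelial genes, 317 with voom, 728 at unadjusted p, and 0 to 80 without 1 mouse, with 0 without either AP mouse or pretreated mouse 2. Of 1656 values of named wider genes, 87 lost and 32 gained a call and 0 reversed. Pgf for AP against saline gained a call in 9 alternatives. With 2 mice a group, intervals of several members include 2-fold.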

Other observations

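Proliferation, lymphocyte and islet genes were read beside the vessels. Summed proliferation levels were 4.45 and 7.07 TPM after saline, 13.5 and 18.5 TPM in AP, and 7.94 and 38.9 TPM after pretreatment. Of 3 tested proliferation genes 1 was raised for AP against saline, Cdk1, from 0.25 and 0.45 TPM to 4.37 and 6.92 TPM (limma, log2 fold change 2.83, adjusted p 0.00353). Of all tested genes 18.2% were raised in that comparison. The saline values of Cdk1 rest on an estimated 2 and 3 reads. It passed the filter only through the caerulein mice, where it was high, so the size of its fold is uncertain. Mki67 and Top2a were not called, and both were highest in pretreated mouse 2, with 14.2 and 13.4 TPM against at most 5.01 and 6.28 TPM in the other mice. Of 8 islet markers, the hormone-producing cells with the densest capillary supply of the organ, 0 were called for AP against saline and Ins2 was reduced for pretreated AP against saline (-1.22, adjusted p 0.0250). Of 4 tested lymphocyte markers, Ptprc, which all leukocytes carry, was raised for AP against saline (1.25, adjusted p 0.0134).

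The mural marker Rgs5 had 45.5 and 34.4 TPM after saline, 84.5 and 58.5 TPM in AP, and 34.7 and 31.0 TPM after pretreatment. Its log2 fold change for AP against saline was 0.82 (adjusted p 0.0205), short of 2-fold, and -1.09 for pretreated AP against AP (adjusted p 0.0719). This gene was singled out after its values were seen.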
